A study of Mus musculus with 4 samples.

Results

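The genes described here are 10 genes of gliogenesis and radial glia, chosen by symbol and drawn from 24971 entries in the count tables, 96 of them accessions without a symbol. They are the nuclear factor I genes Nfia, Nfib and Nfix, the radial glia genes Slc1a3 and Fabp7, the surface and matrix genes Bcan, Tnc, Fgfr3 and Ptprz1, and the astrocyte enzyme gene Aldh1l1. The choice rests on their known roles and uses no threshold on a measured value. They were measured by RNA sequencing in mouse neural tubes at E12.5, counted in days of embryonic development. The 4 libraries comprised 2 labelled Lbx1Δ/Δ and 2 labelled WT, all on the C57BL/6 background, and each was made from pooled tubes of a single genotype from the same litter. The labels give the alleles of Lbx1, a homeobox gene of dorsal interneurons, and name no other allele, transgene or treatment. They number the libraries 1 and 2 within each genotype without saying what the numbers stand for or whether equal numbers share a litter.

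Radial glia are the dividing cells that line the lumen of the neural tube. They first give rise to neurons and then, after a switch called gliogenesis, to astrocytes and oligodendrocyte precursors. In the spinal cord the switch begins in the days around the stage sampled here, with SOX9 and then NFIA and NFIB appearing in the ventricular zone. Slc1a3, which encodes the glutamate transporter GLAST, and Fabp7, which encodes brain lipid-binding protein, are widely used markers of radial glia and of early astrocytes. Whole tubes do not show which cells carried a transcript, so fewer cells of a type and less RNA per cell cannot be told apart.

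Library totals ranged from 16853984 to 20579803 counts, and levels are given as CPM, the count scaled to the library total. A gene with 0 counts could still have been present at 0.146 to 0.178 CPM, a limit of 3 counts that covers counting error only. Lbx1 itself was counted under both labels. It stood at 387 and 81.4 CPM in the libraries labelled Lbx1Δ/Δ and WT of number 2, and at 113 and 39.8 CPM in those of number 1, so it was higher under the mutant label within both numbers. The labels do not say which part of the gene was deleted, so these counts do not check the genotype, and genotypes are given below as labelled. The libraries also stood apart by number. Counts of the tested genes differed far more between numbers within a genotype (chi-square per degree of freedom 93.1 for Lbx1Δ/Δ and 76.1 for WT) than between genotypes within number 2 (18.1) or number 1 (14.2). Values are therefore given by genotype label and by number, and p-values reflect how far these pools differ, which may be technical in part since the labels do not name the litters.

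The stretches of genomic DNA before the starts of Fabp7, Slc1a3 and Ptprz1 are shown because the libraries of number 2 held more of all 3 transcripts, as described below. Each is the 250 bases before the annotated start, from RefSeq on GRCm38.p6, a different build from the one the reads were aligned to. Fabp7 is at chr10:57784673-57784922 on the plus strand, Slc1a3 at chr15:8710808-8711057 on the minus strand and Ptprz1 at chr6:22875252-22875501 on the plus strand. Capitals mark matches to a half-site of the nuclear factor I family, TTGGC, or to the core of the Notch effector RBPJ, GTGGGAA, searched on both strands.
Fabp7: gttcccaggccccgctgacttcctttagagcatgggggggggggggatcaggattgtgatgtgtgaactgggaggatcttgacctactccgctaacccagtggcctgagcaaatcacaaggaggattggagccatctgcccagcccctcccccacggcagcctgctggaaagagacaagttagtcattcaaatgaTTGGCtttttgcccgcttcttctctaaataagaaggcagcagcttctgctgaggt
Slc1a3: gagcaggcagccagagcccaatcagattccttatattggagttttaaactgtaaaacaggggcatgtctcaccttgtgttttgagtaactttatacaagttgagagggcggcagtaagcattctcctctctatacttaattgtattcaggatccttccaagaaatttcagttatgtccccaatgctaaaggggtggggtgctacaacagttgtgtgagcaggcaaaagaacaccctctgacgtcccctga
Ptprz1: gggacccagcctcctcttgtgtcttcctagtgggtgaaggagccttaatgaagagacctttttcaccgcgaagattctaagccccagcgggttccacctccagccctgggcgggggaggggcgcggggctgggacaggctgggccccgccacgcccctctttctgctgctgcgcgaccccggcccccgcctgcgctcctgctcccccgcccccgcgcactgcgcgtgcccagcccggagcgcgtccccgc
The Fabp7 window held a single half-site, 55 to 51 bases before the start, and the windows of Slc1a3 and Ptprz1 held none. A half-site occurred in 41.5% of 32851 promoter windows of the same length, the RBPJ core in 5.42%, and the full palindrome (TTGGC, 5 bases of any kind, then GCCAA), which contains the half-site at each end, in 0.0365%. Of the 10 genes 9 had entries, with 14 windows in all, and Nfib had none. Beyond Fabp7, half-sites were found at 1 start of Tnc and 2 starts of Nfix, and an RBPJ core 82 to 76 bases before the same Tnc start. No window of these genes held the full palindrome.

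The nuclear factor I genes had almost no counts. Nfia, whose product starts gliogenesis in the spinal cord, had 3 counts in the WT library of number 1 and 0 in the other 3 libraries. Nfib, which encodes a close relative of NFIA, had 1 count, in the library labelled Lbx1Δ/Δ of number 1. Nfix, which encodes a relative that acts in later progenitors and in muscle, had 2 counts in each library of number 2, and 1 in the library labelled Lbx1Δ/Δ and 0 in WT of number 1. Aldh1l1, a folate enzyme gene used as an astrocyte marker, had 1 count, in the library labelled Lbx1Δ/Δ of number 1. All these counts lie at or under the limit of 3 per library, so none of these 4 genes gives a level or a ratio, and none entered the tests.

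Low counts went with the number of accessions a gene has. Reads had been counted per RefSeq accession, and Nfia, Nfib, Nfix and Aldh1l1 had 3, 5, 4 and 2 accessions in the files. Of 7924 genes with 2 or more accessions, 61.3% had fewer than 10 counts over the 4 libraries, against 41.3% of 17047 genes with 1 accession. The split was sharper among the 170 genes on the lists used here, where 37 of 67 with 2 or more accessions and 0 of 103 with 1 accession had fewer than 10 counts. These lists were chosen with earlier results of these data known, so the sharper split may reflect that choice in part. Pax6, a transcription factor gene of neural tube progenitors with 8 accessions, had 0 counts in every library, and the housekeeping gene Gapdh had 3 to 10. In the GENCODE transcripts matched to these accessions, 3 of 9529 exonic bases of Nfia and 27 of 9232 of Nfib belonged to a single accession, but 5227 of 6796 did for Nfix. How reads shared by several accessions were treated is not given in the sources used here, and its part in the low counts was not tested. The counts therefore do not show whether these 4 genes were transcribed.

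**Figure D1:**
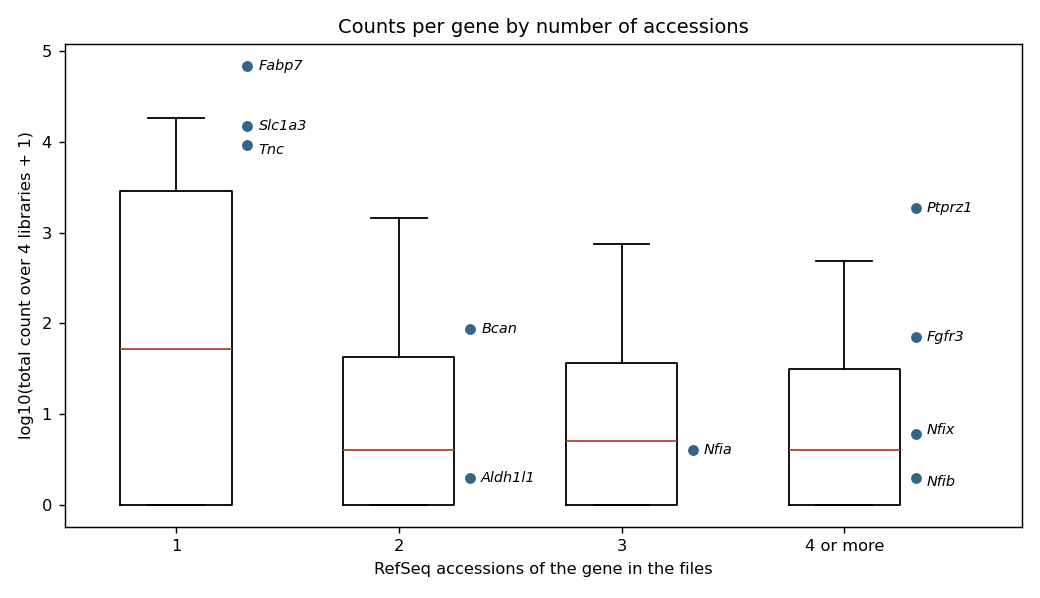
Total count per gene over the 4 libraries (log10 of the count plus 1, vertical axis) by the number of RefSeq accessions of the gene (horizontal axis). Boxes span the quartiles with the median in red, whiskers run from the 5th to the 95th percentile of all genes, and blue points are the 10 gliogenic and radial glia genes, of which Fabp7, Slc1a3 and Tnc have 1 accession and Nfia, Nfib, Nfix and Aldh1l1 lie at 5 counts or fewer.

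The other 6 genes passed the low-count filter. Fabp7, Slc1a3 and Tnc each had a single accession and are counted whole as far as the files show. Ptprz1 had 4 accessions, but all of its 1891 counts fell on 1 of them, so its level rests on part of the gene's transcripts. Bcan, with 86 counts over 2 accessions, and Fgfr3, with 70 counts over 7, rest on few reads and are likewise partial. Bcan passed the filter only through the libraries of number 2, where it was higher, so its difference between numbers was favoured by the filter.

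In the fit on genotype label alone, none of the 6 genes passed the test. Of all 10757 genes tested, 0% were called (edgeR quasi-likelihood test, Benjamini-Hochberg adjusted p under 0.05), although 55 had an unadjusted p under 0.05, and DESeq2 also called 0. The 6 genes had 4 positive and 2 negative fitted log2 differences (Lbx1Δ/Δ over WT), with a median of 0.06 against −0.0026 over all tested genes. None of the 6 had an unadjusted p under 0.05.

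Slc1a3 and Fabp7 were close to each other between genotype labels within each number. Slc1a3 was at 273 CPM in both the library labelled Lbx1Δ/Δ and the WT library of number 2, and at 156 and 152 CPM in those of number 1. Its mean was 214 ± 82.4 CPM in the libraries labelled Lbx1Δ/Δ and 212 ± 85.6 CPM in WT (SD, n = 2 each), a fitted log2 difference of 0.00031 (SE 0.39). Fabp7, a fatty acid-binding protein gene and the most counted of the 10, averaged 1027 ± 350.1 CPM in the libraries labelled Lbx1Δ/Δ and 933 ± 389.9 CPM in WT (SD, n = 2 each). Its log2 difference was 0.12 (SE 0.39), with 0.25 within number 1 and 0.08 within number 2. Without the WT library of number 1 the fitted differences were −0.34 for Slc1a3 and −0.23 for Fabp7, and without the library labelled Lbx1Δ/Δ of number 2 they were −0.44 and −0.26. Each of these fits leaves 1 label with a single number, so it mixes label and number. The SDs of both genes exceeded the differences between means, and the groups overlapped. Each label holds 1 library of each number, so these SDs include the difference between numbers.

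Tnc was lower in the libraries labelled Lbx1Δ/Δ within each number by nearly the same ratio. This gene encodes tenascin-C, a large matrix glycoprotein of the ventricular zone that is also made by tendon, cartilage and other mesenchyme. It was at 54.4 CPM in the library labelled Lbx1Δ/Δ and 82.3 CPM in WT of number 2, and at 143 and 215 CPM in those of number 1. The log2 differences were −0.60 within number 2 and −0.59 within number 1. Over all 4 libraries the fitted difference was −0.60 (SE 0.65, edgeR adjusted p = 0.9998). That fit has no term for number, so its SE includes the difference between numbers. A fit with number as a further term is given with the dependence on processing. The fitted difference on label alone was 0.27 without the WT library of number 1, a fit that sets WT of number 2 alone against both numbers of Lbx1Δ/Δ. Marker sums of several tissues outside the neural tube were also lower under the mutant label within both numbers. Those of mesenchyme and cartilage were at 4308 CPM in the library labelled Lbx1Δ/Δ and 4846 CPM in WT of number 2, and at 4573 and 6443 CPM in those of number 1. In that list 9 of 11 tested genes had fitted log2 differences below 0 (median −0.34), as had 8 of 8 for skeletal muscle (median −0.58) and 5 of 5 for surface ectoderm (median −0.60). The part of these tissues in the Tnc values was not tested.

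Ptprz1, Bcan and Fgfr3 gave no call by genotype label either. Ptprz1, a receptor-type tyrosine phosphatase gene of radial glia and oligodendrocyte precursors, was lower under the mutant label within both numbers, with log2 differences of −0.30 in number 2 and −0.42 in number 1. Its fitted difference was −0.34 (SE 0.80), and it was 0.30 without the library labelled Lbx1Δ/Δ of number 1 and 0.73 without the WT library of number 2. As above, fits that leave out a library mix label and number. Bcan, which encodes the brain chondroitin sulfate proteoglycan brevican, went opposite ways, with 1.54 within number 2 and −0.48 within number 1. Its fitted difference was 1.27 (SE 1.27), and −1.61 without the library labelled Lbx1Δ/Δ of number 2. Fgfr3, a fibroblast growth factor receptor gene expressed in ventricular zone progenitors and in cartilage, had 22 and 7 counts in the libraries labelled Lbx1Δ/Δ and WT of number 2, and 21 and 20 counts in those of number 1. The log2 difference of Fgfr3 was 0.83 (SE 0.58, edgeR unadjusted p = 0.216). It was 1.6 without the WT library of number 1, 0.35 without the WT library of number 2, and 0.49 on the most counted accession alone. Of these counts, 1 accession had 4 and 5 in the libraries labelled Lbx1Δ/Δ of numbers 2 and 1, and 0 in both WT libraries, too few for a ratio.

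**Figure D2:**
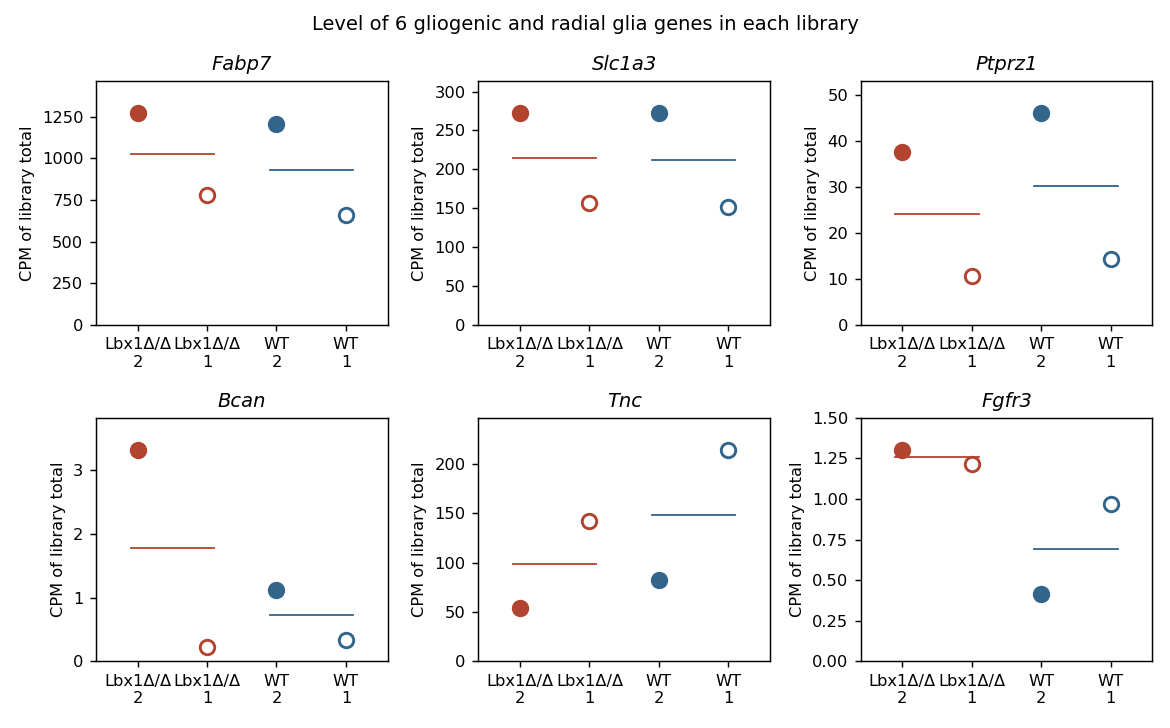
Level of the 6 tested genes in CPM of the library total (vertical axes, from 0) in each library (horizontal axes), red for Lbx1Δ/Δ and blue for WT as labelled, filled for number 2 and open for number 1. Horizontal lines are group means of 2 libraries. Filled points lie above open points for Fabp7, Slc1a3, Ptprz1 and Bcan under both labels, and below them for Tnc.

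By replicate number, Fabp7, Slc1a3 and Ptprz1 were higher and Tnc was lower in number 2 than in number 1, under both genotype labels. Bcan was called higher too, but it passed the filter only through number 2, so of the 5 calls among 6 tested genes 4 are free of that limit. Over all tested genes 25.5% were called in this comparison, 13.3% higher and 12.2% lower, so the number of a library went with a broad difference, and calls in it are not particular to these genes. DESeq2 called 24.4% and a fit with genotype as a further term 35.6% (17.8% in each direction), and the same 5 of the 6 genes were called in both. The median log2 difference of the 6 genes was 0.79 (number 2 over number 1), or 0.77 without Bcan, against 0.00021 over all tested genes. All 5 calls were lost without the number 1 library labelled Lbx1Δ/Δ (adjusted p = 0.0663 to 0.167) and without the WT library of number 1 (adjusted p = 0.0906 to 0.169). In those fits edgeR called only 6 and 1 genes in all, and the lone library of number 1 is then assumed to vary like those of number 2. Each of the 5 genes kept its direction in these fits.

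Slc1a3 and Fabp7 were higher in number 2 to a like extent. Slc1a3 averaged 273 ± 0.118 CPM in number 2 and 154 ± 3.26 CPM in number 1 (SD, n = 2 each), a log2 difference of 0.81 (SE 0.095, edgeR adjusted p = 0.000597). Each number holds 1 library of each label. The SDs and the SE are thus taken across labels, not across replicates of 1 genotype. The ratio of number 2 to number 1 was 1.75 in the libraries labelled Lbx1Δ/Δ and 1.80 in WT. Fabp7 was at 1275 and 1209 CPM in the libraries labelled Lbx1Δ/Δ and WT of number 2, and at 780 and 658 CPM in those of number 1. That gave a log2 difference of 0.77 (SE 0.11, adjusted p = 0.00159), with ratios of 1.64 in the libraries labelled Lbx1Δ/Δ and 1.84 in WT. The libraries of the 2 numbers did not overlap for either gene, and the share of all tested genes for which this holds was not counted. The count of Slc1a3 relative to that of Fabp7 stayed between 0.200 and 0.230 in all 4 libraries.

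Fabp7 was also set against 1 progenitor gene and 1 neuronal gene within each library. Vim, which encodes the intermediate filament vimentin, was at 2455 and 2497 CPM in the libraries labelled Lbx1Δ/Δ and WT of number 2, and at 2499 and 2480 CPM in those of number 1. Counts of Fabp7 relative to Vim were 0.519 and 0.484 in the libraries labelled Lbx1Δ/Δ and WT of number 2, and 0.312 and 0.265 in those of number 1. Relative to Tubb3, a neuronal tubulin gene, the same counts were 0.340 and 0.397 in number 2 and 0.386 and 0.372 in number 1. The ratios to Vim did not overlap between numbers and those to Tubb3 did, and whether Fabp7 follows either gene was not tested.

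Ptprz1 had a larger ratio between numbers than Slc1a3 or Fabp7. It was at 37.5 and 46.1 CPM in the libraries labelled Lbx1Δ/Δ and WT of number 2, and at 10.7 and 14.3 CPM in those of number 1. The ratio was 3.51 in the libraries labelled Lbx1Δ/Δ and 3.22 in WT, and the log2 difference was 1.72 (SE 0.20, edgeR adjusted p = 0.000558), above the 95th percentile of all tested genes (1.20). Bcan was at 3.32 and 1.12 CPM in the libraries labelled Lbx1Δ/Δ and WT of number 2 (56 and 19 counts), and at 0.232 and 0.340 CPM in those of number 1 (4 and 7 counts). Its log2 difference was 2.89 (SE 0.66, adjusted p = 0.0112), and 1.93 without the number 2 library labelled Lbx1Δ/Δ, where it was not called (adjusted p = 0.149).

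Tnc fell in number 2. It averaged 68.4 ± 19.7 CPM in number 2 and 179 ± 51.1 CPM in number 1 (SD, n = 2 each), a log2 difference of −1.40 (SE 0.22, edgeR adjusted p = 0.00201), below the 5th percentile of all tested genes (−0.99). These SDs span the 2 labels, between which Tnc differed within each number. Number 2 stood at 0.382 of number 1 in the libraries labelled Lbx1Δ/Δ and at 0.383 of it in WT. Fgfr3 did not pass (log2 difference −0.36, SE 0.58, adjusted p = 0.689). It was at 1.31 and 0.413 CPM in the libraries labelled Lbx1Δ/Δ and WT of number 2, and at 1.22 and 0.972 CPM in those of number 1, so the numbers overlapped.

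**Figure D3:**
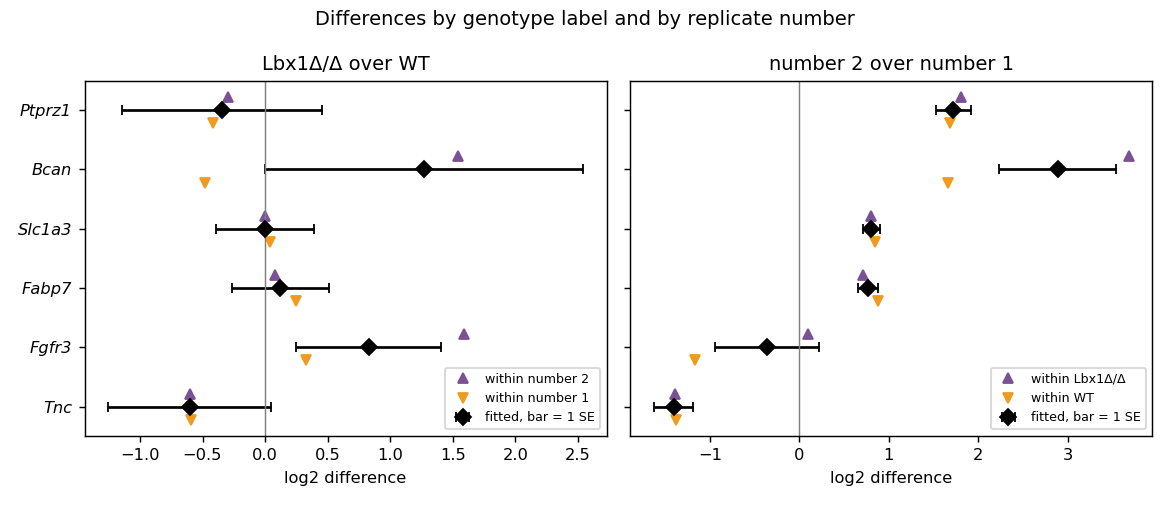
Log2 differences of the 6 tested genes (horizontal axes) between genotype labels (left, Lbx1Δ/Δ over WT) and between replicate numbers (right, number 2 over number 1). Black diamonds are fitted values with bars of 1 SE, and triangles are differences between single libraries, within each number on the left and within each genotype label on the right. On the right the triangles of Fabp7, Slc1a3 and Ptprz1 lie to the right of 0 and those of Tnc to the left.

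Markers of several cell types moved with the number. Summed levels of 12 neuronal genes were 11352 and 9936 CPM in the libraries labelled Lbx1Δ/Δ and WT of number 2, and 6310 and 5755 CPM in those of number 1, and all 7 tested were called higher, with Elavl4, Syt1 and Rbfox3 at 3 counts or fewer. All 8 tested cell cycle genes were called lower, with sums of 2123 and 2753 CPM in number 2 and 4300 and 4132 CPM in number 1. Sums of the 13 radial glia and progenitor genes stayed between 4659 and 4806 CPM, with Pax6 and Ttyh1 at 0 and Prom1 and Mfge8 under 10 counts. Vim, at 2455 to 2499 CPM, was the largest part of these sums. Of the 9 tested, 5 had log2 differences above 0 and 4 below, and 2 were called lower and 0 higher. With either library of number 1 left out, none of these neuronal and cell cycle genes was called. Their part in the differences of Fabp7, Slc1a3, Ptprz1 and Bcan was not tested.

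Of the tissues outside the neural tube, several lists differed by number and others did not. Skeletal muscle genes summed to 139 and 443 CPM in the libraries labelled Lbx1Δ/Δ and WT of number 2, and to 798 and 935 CPM in those of number 1, and 6 of 8 tested were called lower. In the mesenchyme and cartilage list 3 of 11 were called lower and 0 higher, beside 25.5% called in either direction over all tested genes. The 3 were Twist1 (log2 −1.42), Prrx1 (−0.98) and Lum (−0.76). Of the 11, 8 had log2 differences below 0 and 3 above. The sums of this list overlapped between numbers, with 4308 and 4846 CPM in number 2 and 4573 and 6443 CPM in number 1. Erythroid genes, with Alas2 at 0, were called lower in 4 of 4 tested, with sums of 728 and 831 CPM in number 2 and 2757 and 3522 CPM in number 1. Surface ectoderm genes were called lower in 3 of 5 tested. Of 5 tested genes of microglia and macrophages 0 were called (median log2 0.11), and of 4 of endothelium 1 was called higher and 0 lower (median −0.09). Without the library labelled Lbx1Δ/Δ of number 1, Hbb-bh1 and Hba-x were the only genes on these 6 lists still called, and without the WT library of number 1 none was. Their part in the lower Tnc of number 2 was not tested.

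Schwann cell precursors and satellite glia can also express Fabp7. Genes of these cells and of neural crest summed to 253 and 215 CPM in the libraries labelled Lbx1Δ/Δ and WT of number 2, and to 251 and 237 CPM in those of number 1, with Cdh19 at 0. Of 4 tested, Foxd3 was called higher (log2 0.59) and Erbb3 lower (−0.58), while Sox10 had a log2 difference of 0.016. The summed level of these genes overlapped between numbers, while Fabp7 did not.

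**Figure D4:**
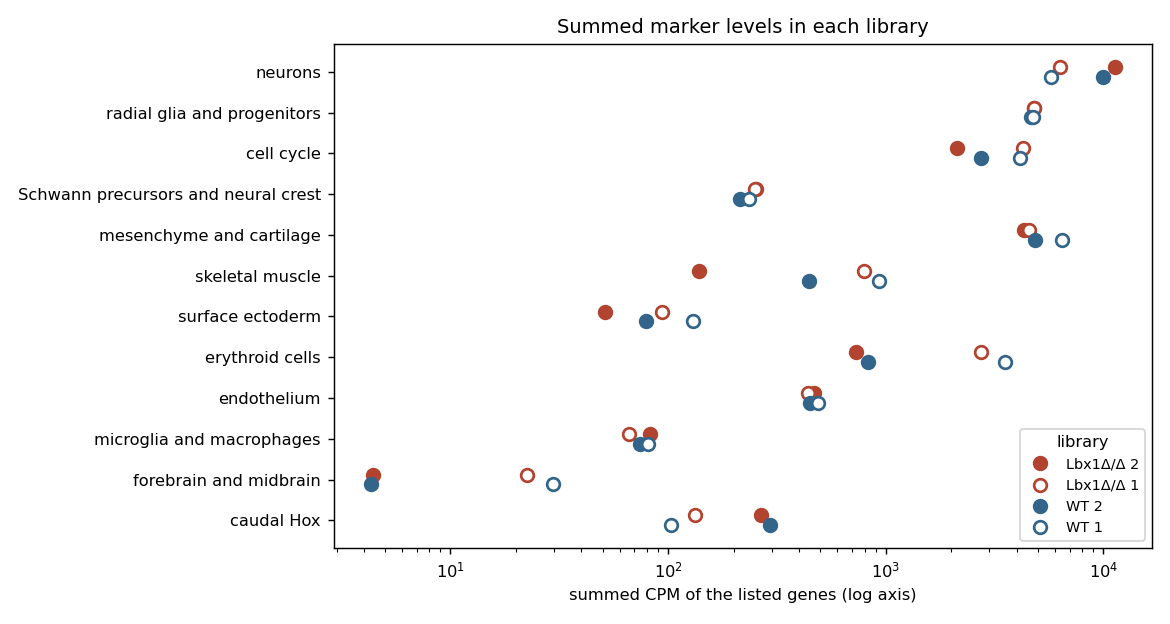
Summed CPM of the genes on each marker list (horizontal log axis) in each library, red for Lbx1Δ/Δ and blue for WT as labelled, filled for number 2 and open for number 1. Neuronal and caudal Hox sums are higher in number 2, those of cell cycle, muscle, ectoderm and erythroid genes are lower, and those of radial glia and progenitors lie close together.

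Regulators of gliogenesis were mixed in direction by number. Of 14 listed, 10 were tested, 2 of them called higher and 2 lower, with a median log2 difference of 0.042, and Stat3 and Zbtb20 had 0 counts. Olig1, a bHLH factor gene of the oligodendrocyte lineage, was at 11.9 and 7.55 CPM in the libraries labelled Lbx1Δ/Δ and WT of number 2, and at 0.522 and 0.486 CPM in those of number 1. Its log2 difference was 4.24 (SE 0.39, edgeR adjusted p = 0.000238), and like Bcan it passed the filter only through the libraries of number 2, where it is high. Olig2, its partner gene, which also marks motor neuron progenitors, rose by 0.88 (adjusted p = 0.0429). Sox9, which encodes a factor that acts before NFIA, fell by 0.54 (adjusted p = 0.00524), and Notch2, a receptor gene, fell by 0.37. DESeq2 did not call Olig2.

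Of 3 genes described as joint targets of NFIA and SOX9 in the spinal cord, 2 were higher and 1 lower in number 2. Mmd2 was at 42.0 and 33.3 CPM in the libraries labelled Lbx1Δ/Δ and WT of number 2, and at 13.6 and 17.5 CPM in those of number 1 (log2 1.25, SE 0.19, edgeR adjusted p = 0.00172). Apcdd1, which encodes an inhibitor of Wnt signalling, rose by 0.61 (adjusted p = 0.00348). Zcchc24 fell by 0.47 (adjusted p = 0.0221). Among 9 tested genes of radial glia and progenitors 0 were called higher and 2 lower, Phgdh (−0.45), a serine synthesis enzyme gene, and Sox3 (−0.60), a progenitor factor gene. Msi1, an RNA-binding protein gene of progenitors, had a log2 difference of 0.39 (SE 0.15, adjusted p = 0.0757 by edgeR) and was called by DESeq2.

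Markers of maturing glia were counted unevenly. The 16 astrocyte genes summed to 1027 and 1096 CPM in the libraries labelled Lbx1Δ/Δ and WT of number 2, and to 1030 and 1029 CPM in those of number 1. Among them Glul was at 453 and 438 CPM in number 2, and at 423 and 408 CPM in number 1. Gja1 was at 290 and 366 CPM in number 2, and at 403 and 433 CPM in number 1. Its log2 difference was −0.37 (SE 0.13, edgeR adjusted p = 0.0608). Acsbg1 went the other way, with a log2 difference of 0.69 (SE 0.23, edgeR adjusted p = 0.0536). DESeq2 called both Gja1 and Acsbg1. Fewer than 10 counts were found for 6 of the 16. Of 16 astrocyte genes 7 were tested and edgeR called 1, Id4, an inhibitor of bHLH factors. Id4 had a log2 difference of 0.86 (adjusted p = 0.000527 by edgeR). Its levels were 165 and 170.2 CPM in the libraries labelled Lbx1Δ/Δ and WT of number 2, against 91.7 and 90.1 CPM in those of number 1. Aqp4 and Slc1a2 had 0 counts, and Gfap, the astrocyte filament gene, was at 0.118 to 0.232 CPM, or 2 to 4 counts. Aqp4 and Slc1a2 have 9 and 4 accessions, and the part of this in their counts was not tested. Of 11 oligodendrocyte lineage genes 8 were tested, with Mbp (0.58) called higher beside the Olig genes and Gpr17 (−0.75) called lower. Pdgfra, the receptor gene of oligodendrocyte precursors, which mesenchyme also expresses, had a log2 difference of −1.40 (SE 0.63, adjusted p = 0.130), on 5 accessions.

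Relatives of the 10 genes within their families were called higher in 6 and lower in 1 of 15 tested. Ncan, the brain lectican neurocan and a relative of Bcan with 1 accession, was at 816 and 654 CPM in the libraries labelled Lbx1Δ/Δ and WT of number 2, and at 384 and 340.2 CPM in those of number 1 (log2 1.0, SE 0.13, edgeR adjusted p = 0.000765). Slc1a1, which encodes the neuronal glutamate transporter EAAC1 and is related to Slc1a3, had a log2 difference of 2.11 (SE 0.17, adjusted p = 0.000223). Aldh1l2, the mitochondrial counterpart of Aldh1l1, rose by 0.82 (adjusted p = 0.00192), and Slc1a4, a neutral amino acid transporter gene, rose by 0.51. Tnr, a relative of Tnc, rose by 1.62 (edgeR adjusted p = 0.0115), opposite in direction to Tnc. Fabp3, a relative of Fabp7, rose by 0.78 (edgeR adjusted p = 0.00926). The relative called lower was Fgfr4 (−0.75), and Nfic, Fabp5 and Fgfr1 had 0 counts. With either library of number 1 left out, none of the genes on these 6 lists was called by number in edgeR. In the fit on genotype label alone 0 of the genes on these 6 lists were called. Hes5 and Notch1, both of the Notch pathway, had log2 differences of 0.49 (SE 0.25) and 0.36 (SE 0.19). Of the 15 tested relatives, 10 had differences above 0 and 5 below in that fit. Tnn, a relative of Tnc, was among those below, at −2.01 (SE 0.68), as was Hapln1, at −0.64 (SE 0.29). Tnn rests on few reads. It had 2 and 16 counts in the libraries labelled Lbx1Δ/Δ and WT of number 2, and 6 and 20 in those of number 1. Fgfr4, Tnr and Fabp3 were named after their values were seen.

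**Figure D5:**
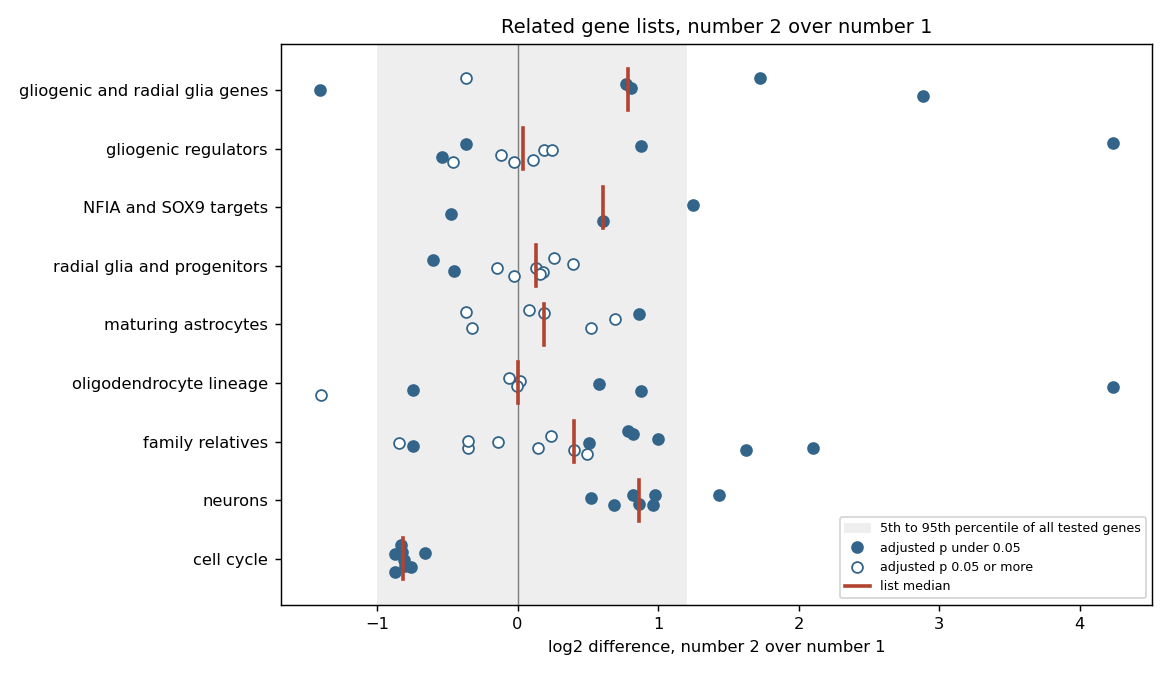
Log2 differences of number 2 over number 1 (horizontal axis) for the tested genes of each list, with filled points for those called by edgeR and red bars for list medians. The grey band spans the 5th to 95th percentile of all tested genes. Ptprz1, Bcan, Olig1, Mmd2, Slc1a1, Tnr and Map2 lie to the right of the band, and Tnc and Pdgfra to its left.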

How the data were processed

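The build mm9 and the tools TopHat2 2.1.1, edgeR and featureCounts are named per the submitters' processing notes. The deposited values are raw counts per RefSeq accession, per the values of the files. The annotation, strand setting and treatment of shared reads are not stated there, so reads of antisense partners cannot be told apart. Of 41411 accessions, 41218 took a symbol from a RefSeq table of GRCm38 and 97 from GENCODE M21, and 96 stayed unnamed, holding 0.325% to 0.649% of counts and kept as features. Counts were summed per symbol, and CPM are relative to the library total. For tests, edgeR 4.0.16 in R 4.3.3 used filterByExpr by genotype (minimum count 10, minimum total 15), which left 10757 genes, TMM scaling and the quasi-likelihood test, two-sided, on genotype alone or on number alone. P-values were adjusted over all tested genes by Benjamini-Hochberg at 0.05, and SE is the log2 difference over the root of F. Differences between single libraries used 0.5 added counts. The tests were tried on simulated data. Alternatives were DESeq2 1.42.0, RLE scaling, library totals, no filter, a second term, the most counted accession alone and leaving out each library. All 10 genes are named, with up to 4 genes of each related list by smallest p. The genes and lists were chosen with earlier results of these data known.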

Additional observations from a re-analysis of the deposited data

How the results depend on the processing

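By genotype label, edgeR called 0 genes under RLE scaling, library totals, no low-count filter, the most counted accession alone and leaving out each library in turn, as did DESeq2. With the replicate block it called 92 genes, 29 higher and 63 lower, 0.855% of those tested. Of the 10 genes this included Tnc (log2 −0.61, SE 0.084, adjusted p = 0.00383), and of the listed genes Hapln1, a relative, Lum, Krt5, Map2 and Myh3. Deviations by number correlated at 0.62 over genes between genotype labels, but the labels do not state that numbers pair the libraries. Slc1a3 turned to −0.0085 without the low-count filter. With 1 library left out, 1 label holds a single number, so label and number are mixed. Leaving out 1 library gave log2 differences between labels of −0.44 to 0.48 for Slc1a3, −0.26 to 0.62 for Fabp7, −1.61 to 2.33 for Bcan, −1.47 to 0.27 for Tnc, 0.35 to 1.6 for Fgfr3 and −1.50 to 0.73 for Ptprz1. By number, 2620 to 3833 genes were called under the other settings, against 2739, and the same 5 of the 10 genes were called in each. Leaving out 1 library gave 1 to 3917 calls and −1.39 to 0.22 for Fgfr3; the cause was not tested. Mean CPM of the 6 tested genes moved by less than 1 SD with TMM scaling. Bcan and Fgfr3 rest on few counts, and Nfia, Nfib, Nfix and Aldh1l1 lie at or under the limit of 3 counts.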

Other observations

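Genes that mark positions along the body axis also differed by number. Emx2, a homeobox gene of the forebrain and urogenital tissue, was at 0.356 and 2.01 CPM in the libraries labelled Lbx1Δ/Δ and WT of number 2, and at 19.3 and 25.2 CPM in those of number 1 (log2 −4.24, SE 0.47, edgeR adjusted p = 0.000514). Hoxc10 and Hoxd10, genes of lumbar levels, rose by 1.04 and 1.59 in number 2, and 4 of 8 tested caudal Hox genes were called higher and 0 lower. None of these genes was called with either library of number 1 left out. Lyl1, a blood and endothelial factor gene on the strand opposite Nfix, whose exons overlap those of Nfix in GENCODE, had 110 and 105 counts in the libraries labelled Lbx1Δ/Δ and WT of number 2, and 148 and 191 in those of number 1. E130114P18Rik, which overlaps Nfia in the same way, had 333 and 334 counts in number 2, and 233 and 281 in number 1. With the strand setting not given, reads of either partner cannot be told apart.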
